A study of Mus musculus with 8 samples.

Results

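Podocyte transcripts were examined in cells of renin lineage (CoRL), the cells that make renin or once did, sorted from the kidney cortex of 8 mice. The gene panel holds 8 podocyte genes, which were Synpo, Wt1, Podxl, Ptpro, Cdkn1c, Cd2ap, Actn4 and Nes. Every array probe whose platform symbol is a panel gene was taken, which gave 11 probes of 7 genes among the 16593 genes with a named probe. Synpo had no named probe and was not analysed here. All mice carried Ren1cCre×Rs-ZsGreen-R, in which Cre under the renin regulatory region switches on ZsGreen for good, so that the label marks present and past renin expression alike. Of these, 4 mice were uninjured, and 4 had experimental focal segmental glomerulosclerosis (FSGS) and were studied on day 5. FSGS was produced with 2 intraperitoneal doses of sheep anti-glomerular antibody, given 24 h apart at 12 mg for each 20 g of body weight, which depletes podocytes, and day 5 was counted from the second dose. The uninjured mice were matched for age and received no antibody, and the ages are not given in the sources used here. The comparison bears on whether CoRL take up a podocyte programme after podocytes are lost, and it is confined to transcript levels in the sorted population as a whole.

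Podocytes are the epithelial cells that wrap the glomerular capillaries with interlocking foot processes, and the slit diaphragm between these processes is part of the filter. They divide rarely, so lost podocytes have to be replaced from other cells, and CoRL of the juxtaglomerular region have been proposed as a source. The panel covers a transcription factor of podocytes (Wt1), proteins of their surface (Podxl and Ptpro), an adaptor of the slit diaphragm (Cd2ap), parts of the actin and intermediate filament cytoskeleton (Synpo, Actn4 and Nes) and an inhibitor of the cell cycle (Cdkn1c). None of these genes is made by podocytes alone. Podxl is also made by endothelium, Cd2ap and Actn4 by many kinds of cells, and Ptpro by some white blood cells.

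RNA from each mouse was hybridized to an array of its own (Illumina MouseRef-8 v2.0), on which a probe has a brightness and a detection p-value that sets this brightness against beads with no target. Levels are given as log2 of the background-corrected, quantile-normalized intensity, the mean of a gene's probes where it has several. A probe was taken as above background at a detection p under 0.01. The number of probes above background was 5793 to 12052 in the uninjured group and 11153 to 11700 in the day 5 group, fewest on uninjured replicate 1, where dim genes are therefore measured least well. Replicate 3 of the day 5 group stood apart. Without it limma called 1187 genes higher and 711 lower, against 312 and 63 with all 8 arrays, and the panel is therefore also given without it. Ren1 and Akr1b7, which define renin cells, and Nphs1, which marks podocytes, had no named probe and were not analysed here. Of 20 measured genes of renin and juxtaglomerular cells, 5 were above background on all 8 arrays and 6 on none, Pdgfrb and Nos1 among the latter. Of 22 genes of smooth muscle, pericytes and mesangial cells, 2 were above background on all 8 arrays, 8 on all arrays of at least 1 group and 10 on none, the contractile genes Tagln, Cnn1 and Myocd among the latter. Thy1, Des and Pdgfra of that list were above background on all day 5 arrays. Of 23 proximal tubule genes 18 were above it on all 8 arrays, and of 26 macrophage genes 14 were.

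**Figure D1:**
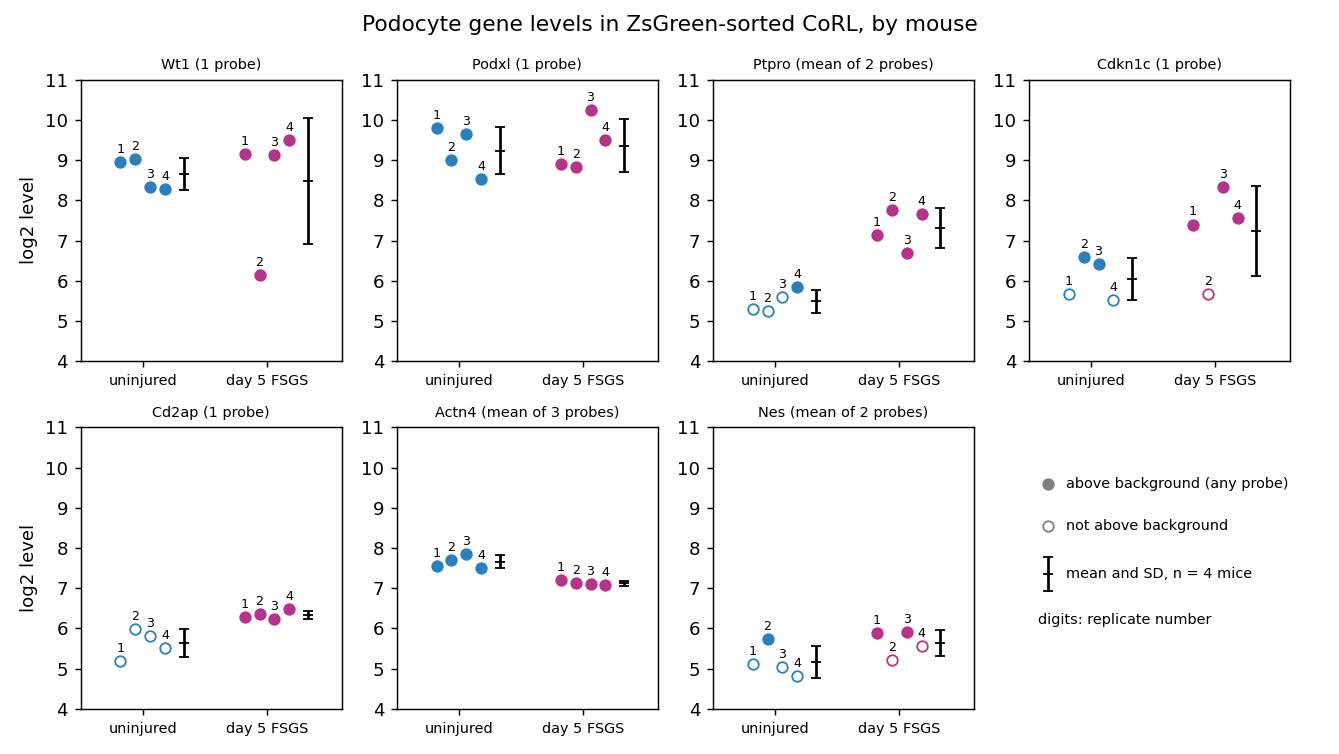
Log2 level of each of the 7 measured podocyte genes in each mouse (vertical axis, digits give the replicate number), for the 4 uninjured and the 4 day 5 FSGS mice, with the mean and SD of each group. Filled points were above background at a detection p under 0.01. Ptpro is apart between the groups, and Wt1 is at 6.13 in day 5 replicate 2 and between 8.27 and 9.51 in the other 7 mice.

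Promoter sequence is shown for the 3 panel genes whose groups of mice did not overlap, Ptpro, Cd2ap and Actn4. It comes from RefSeq (mouse build GRCm38.p6), whose table held 4 of the 8 panel genes, and covers the 250 bases before the annotated start of each gene, written along the gene's strand. Both strands were searched for GGAA, the core of sites bound by ETS factors, and for GNGTGGGNG, the letters shared by sites of WT1 and of EGR factors. The 2 motifs can share end bases, and the capitals in each sequence mark 1 of them only. In the Ptpro sequence (chr6:137252049-137252298, plus strand) the capitals mark GGAA or its reverse, with 6 matches, and 8.69% of 32851 windows of this length hold at least as many, while GNGTGGGNG has 0 matches there. In the Cd2ap (chr17:42876425-42876674, minus strand) and Actn4 (chr7:28962333-28962582, minus strand) sequences the capitals mark GNGTGGGNG. Cd2ap has 1 match, and 12.7% of windows have at least 1. Actn4 has 2, and 2.27% of windows have at least 2. GGAA or its reverse, not marked in these sequences, has 1 match in Cd2ap, and 93.4% of windows have at least 1. In Actn4 it has 3, and 54.7% of windows have at least 3. A match is a description of the letters and does not show that a factor binds there.
Ptpro: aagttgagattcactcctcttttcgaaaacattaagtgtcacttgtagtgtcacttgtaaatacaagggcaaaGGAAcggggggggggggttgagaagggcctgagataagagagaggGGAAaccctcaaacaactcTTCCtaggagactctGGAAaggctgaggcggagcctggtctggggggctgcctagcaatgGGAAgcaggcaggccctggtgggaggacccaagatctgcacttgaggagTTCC
Cd2ap: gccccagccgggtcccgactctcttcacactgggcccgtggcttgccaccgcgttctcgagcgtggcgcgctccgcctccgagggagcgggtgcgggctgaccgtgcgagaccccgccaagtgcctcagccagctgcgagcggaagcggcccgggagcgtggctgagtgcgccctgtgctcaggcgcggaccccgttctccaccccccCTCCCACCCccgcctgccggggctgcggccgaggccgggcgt
Actn4: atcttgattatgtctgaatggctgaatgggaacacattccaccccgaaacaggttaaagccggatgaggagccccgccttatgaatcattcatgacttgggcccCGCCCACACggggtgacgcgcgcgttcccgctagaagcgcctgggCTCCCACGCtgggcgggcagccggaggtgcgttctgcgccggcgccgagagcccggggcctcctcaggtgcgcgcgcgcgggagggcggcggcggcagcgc

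Ptpro rose on day 5 and was the only panel gene called by the test. It encodes a receptor-type tyrosine phosphatase on the podocyte's apical surface, known first as GLEPP1. Its log2 level read 5.29, 5.23, 5.60 and 5.85 in the uninjured mice, in the order of their replicate numbers as in all sequences of values here, and 7.13, 7.76, 6.69 and 7.65 in the day 5 mice. All 4 day 5 mice were above all 4 uninjured mice, and replicate 3 was the lowest of the day 5 group. Ptpro was above background in 1 of 4 uninjured mice, replicate 4, and in 4 of 4 day 5 mice. The fitted change was 1.82 on the log2 scale, 3.52-fold, with an SE of 0.25 (limma, adjusted p = 0.00684 over 16593 genes, 4 against 4 mice). The exact permutation test over the 8 mice gave p = 0.0286 (two-sided), the smallest that 70 arrangements allow. The threshold for a call was an adjusted p of 0.01 or less, which 1.88% of all genes passed upward and 0.38% downward. In RNA of a whole sorted population, a change in the number of cells that make a transcript and a change in its amount per cell cannot be told apart, here and in each result that follows.

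Both Ptpro probes were higher on day 5 with no overlap. The first rose by 2.35 with an SE of 0.34 (limma, adjusted p = 0.00731 over all named probes) and the second differed by 1.28 with an SE of 0.22 and an adjusted p of 0.0109 by limma, which is just outside the threshold. At probe level 1 of the panel's 11 probes was called, and over all named probes 2.46% were called in either direction and 1.93% upward. In intensity as deposited, the first Ptpro probe read 219.7, 201.6, 183.9 and 183.9 in the uninjured mice and 451.1, 568.5, 261.8 and 440.9 in the day 5 mice, and of its uninjured readings only that of replicate 4 was above background. The size of the change depended on how background was treated. It was 1.31 with a larger offset (limma, adjusted p = 0.0117) and 0.69 in the authors' processed table (limma, adjusted p = 0.0106). The call was also lost when any 1 mouse other than day 5 replicate 3 was left out, that is each of the 4 uninjured mice and day 5 replicates 1, 2 and 4. The change was then 1.67 to 1.93, with adjusted p by limma of 0.0160 to 0.0264. Without day 5 replicate 3 it was 2.02 (limma, adjusted p = 0.000895).

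Genes of macrophages, and in part of lymphocytes, ordered the mice much as Ptpro did. Of 26 measured genes of macrophages and monocytes, 14 were called higher and 26 had a higher mean on day 5, with a median change of 2.53 on the log2 scale against -0.03 for all genes. The mean log2 level of the list was 7.29, 6.92, 7.42 and 7.48 in the uninjured mice, and 9.77, 10.07, 8.63 and 10.16 in the day 5 mice. Within the uninjured group, the 4 mice stood in the same order for this list and for Ptpro. Ptpro was above background in only 1 of these 4 mice, so its order there rests largely on levels below background. In intensity as deposited, its first probe read 219.7, 201.6, 183.9 and 183.9 in them, which is not that order. In the day 5 group replicate 3 was lowest and replicate 1 next lowest for both Ptpro and the macrophage list. That was not particular to macrophages. It also held for the mean levels of relatives of the panel genes (6.58, 6.60, 6.41 and 6.75) and of neutrophil genes (5.51, 5.87, 5.49 and 6.81). No gene of the macrophage list was below background on all arrays. Cx3cr1, a chemokine receptor of monocytes and macrophages, changed by 3.32 (SE 0.33, limma adjusted p = 0.00340), and C1qc, a complement subunit made by macrophages, by 3.13 (SE 0.42, limma adjusted p = 0.00630). As for Ptpro, these calls were lost when any 1 mouse other than day 5 replicate 3 was left out, with 0 of the 26 genes then called by limma and adjusted p of 0.0112 to 0.0162 for Cx3cr1 and 0.0162 to 0.0271 for C1qc. Leaving out day 5 replicate 3 gave 24 calls. The authors' processed table gave 13, with a change of 1.76 for Cx3cr1 and 2.33 for C1qc. The share of white blood cells in the change of Ptpro was not tested.

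**Figure D2:**
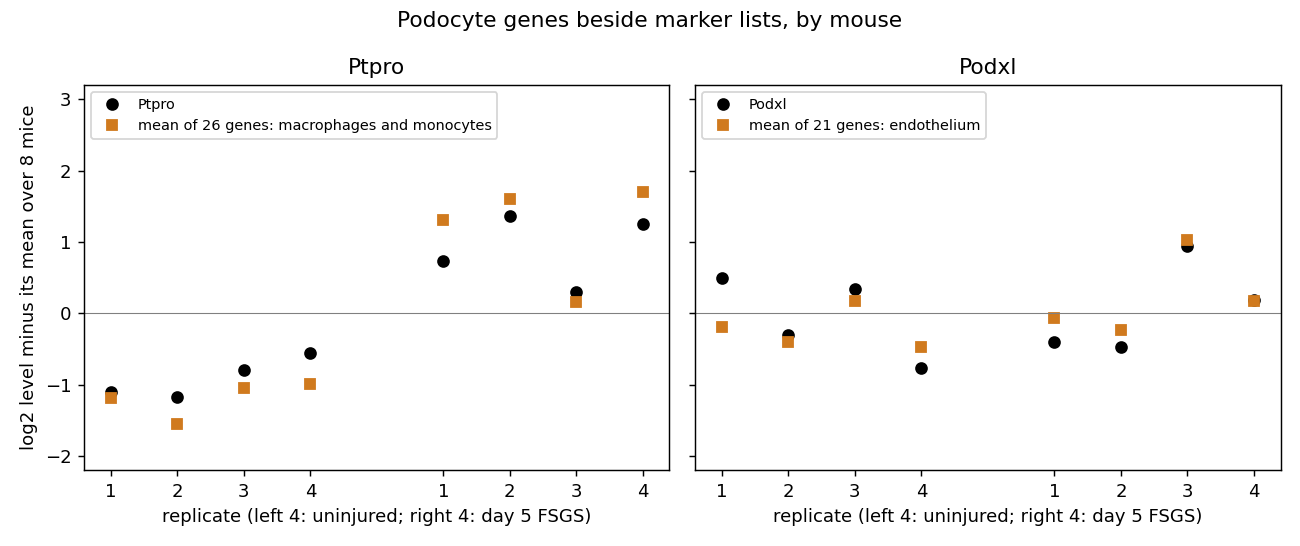
Log2 level of Ptpro beside the mean level of 26 macrophage and monocyte genes (left), and of Podxl beside that of 21 endothelial genes (right), each minus its own mean over 8 mice, by replicate. In day 5 replicate 3 Ptpro (6.69) and the macrophage list (8.63) are the lowest of their group, while Podxl (10.24) and the endothelial list (7.64) are the highest.

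Cd2ap was higher in every day 5 mouse than in any uninjured mouse, but it was not called. CD2AP links nephrin at the slit diaphragm to the actin cytoskeleton. Its single probe read a log2 level of 5.20, 6.00, 5.82 and 5.52 in the uninjured mice and 6.28, 6.35, 6.23 and 6.47 in the day 5 mice. It was above background in 0 of 4 uninjured mice and in 4 of 4 day 5 mice, so the uninjured level is only a bound. Against the lowest level that counted as above background on the uninjured arrays no fold above 1 could be set. The measured means were 5.63 ± 0.35 and 6.34 ± 0.10 (SD, n = 4 each), and the fitted change was 0.70 with an SE of 0.17 (limma, adjusted p = 0.0322, exact permutation p = 0.0286). At a detection p under 0.05, 3 of the 4 uninjured mice were above background as well. With the arrays scaled to a common median Cd2ap was called, at 0.84 (limma, adjusted p = 0.00856), and without day 5 replicate 3 it was 0.74 (limma, adjusted p = 0.0308). Groups that do not overlap were common on these arrays, with 10.4% of all genes higher and 9.6% lower.

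Actn4 was lower in every day 5 mouse than in any uninjured mouse, and it too was not called. It encodes alpha-actinin-4, which bundles actin filaments in foot processes and in many other cells. The mean log2 level of its 3 probes was 7.55, 7.71, 7.86 and 7.50 in the uninjured mice and 7.21, 7.12, 7.10 and 7.08 in the day 5 mice, above background in all 8. The day 5 values lay within 0.13 of each other and the uninjured ones within 0.36. The change was -0.53 with an SE of 0.10 (limma, adjusted p = 0.0170, exact permutation p = 0.0286). The 3 probes gave -0.38, -0.57 and -0.64 on the log2 scale, and the first had overlapping groups. The change of the gene depended on how the arrays were scaled. With arrays scaled to a common median it was -0.20 (limma, adjusted p = 0.402) where the median of all genes stood at -0.18, and with a common 75th percentile it was -0.55 where that median stood at -0.52, so that Actn4 was close to the median gene under both. It passed the threshold with weights on the arrays, at -0.54 (limma, adjusted p = 0.00792), and without day 5 replicate 3 it was -0.52 (limma, adjusted p = 0.0178). The genes whose profile over the 8 arrays was most like that of Actn4 were Ssbp1, a mitochondrial DNA-binding protein, Galt, an enzyme of galactose metabolism, and Psma4, a proteasome subunit. Their root-mean-square differences from it, after each gene was centred, were 0.079, 0.092 and 0.10 on the log2 scale, among 4096 genes.

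Wt1 differed between the groups by far less than between mice of the day 5 group. WT1 is the zinc finger factor on which podocyte identity depends, and parietal epithelial cells have it at low level. Its single probe read a log2 level of 8.94, 9.03, 8.34 and 8.27 in the uninjured mice and 9.15, 6.13, 9.14 and 9.51 in the day 5 mice, and it was above background in all 8. Day 5 replicate 2 was the lowest of all 8, and the other 3 day 5 mice were above every uninjured mouse. Over all mice the change was -0.16 with an SE of 0.69 and a 95% confidence interval of -1.75 to 1.43 (limma, adjusted p = 0.907, exact permutation p = 1). Without day 5 replicate 2 it was 0.62 (limma, adjusted p = 0.160), so that this mouse set its direction, while without replicate 3 it was -0.38 (limma, adjusted p = 0.794). The direction also turned with no background correction (0.016), with a common median (0.14) and in the authors' processed table (0.032). Slc15a2, a peptide transporter of the proximal tubule, Rgs5, a regulator of G protein signalling in pericytes, and Ccn2, a matrix-associated growth factor, were most like Wt1 in profile, with root-mean-square differences of 0.56, 0.59 and 0.61 on the log2 scale. All 3 were also lowest in day 5 replicate 2. As they were picked for likeness to Wt1 over these same mice, a low value there came with the choice. Rgs5 was at 6.85 there, whereas the remaining day 5 mice had 8.78 to 9.14.

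Podxl varied from mouse to mouse in both groups. Podocalyxin is the charged sialoprotein that keeps foot processes and the faces of endothelial cells apart. Its log2 level was 9.79, 8.996, 9.64 and 8.53 in the uninjured mice and 8.89, 8.82, 10.24 and 9.49 in the day 5 mice, above background in all 8. The groups overlapped over most of their range, and the highest of all was day 5 replicate 3. The change was 0.12 with an SE of 0.38 and a 95% confidence interval of -0.75 to 1.00 (limma, adjusted p = 0.867, exact permutation p = 0.771). It turned to -0.17 without day 5 replicate 3, to -0.11 without uninjured replicate 4, and to -0.09 with weights on the arrays.

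The profile of Podxl was set beside endothelial genes. The genes most like it were Egfl7, an angiogenic factor secreted by endothelium, Tcim and Ly6c1, a surface antigen of endothelial cells and monocytes, at root-mean-square differences of 0.15, 0.17 and 0.17 on the log2 scale. Egfl7 read 8.25 in day 5 replicate 3 and 6.31 in uninjured replicate 4, the same mice in which Podxl was highest and lowest. As Egfl7 was picked for likeness to Podxl over these same mice, this match came with the choice. Egfl7 also belongs to the endothelial list, and Ly6c1 to the macrophage list. Of 21 measured endothelial genes, 9 were above background on all 8 arrays and 1 on none, and 0 were called by limma, with 6 at an unadjusted p under 0.05. Over the whole array 5055 of 16593 genes were at an unadjusted p under 0.05. The mean log2 level of the endothelial list was 6.13 to 6.79 in uninjured mice and 6.38 to 7.64 in day 5 mice. The 4 day 5 mice stood in the same order as for Podxl. The uninjured mice did not, the list being highest in replicate 3 and Podxl in replicate 1. That day 5 order was not particular to endothelium. It was also that of the podocyte transcription factors (6.48, 6.26, 6.55 and 6.52) and of the renin and juxtaglomerular genes (6.13, 5.82, 6.31 and 6.29). The part of endothelial cells in the level of Podxl was not tested.

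**Figure D3:**
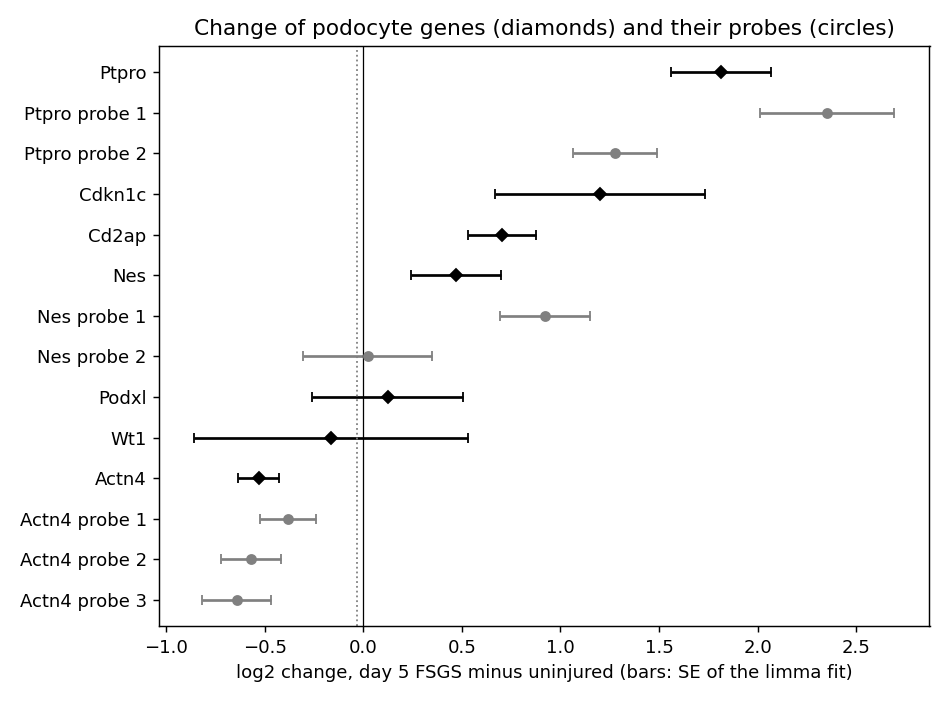
Change of the 7 podocyte genes (black diamonds) and, for genes with several probes, of each probe (grey circles), as log2 level on day 5 minus uninjured, with the SE of the limma fit. The dotted line is the median of all genes, -0.03. The Ptpro probes lie at 2.35 and 1.28, the Nes probes at 0.92 and 0.02.

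Cdkn1c and Nes had higher means on day 5 that did not pass the test. Cdkn1c encodes p57, an inhibitor of cyclin-dependent kinases that is kept by podocytes that no longer divide. Its log2 level was 5.66, 6.58, 6.41 and 5.52 in the uninjured mice and 7.40, 5.67, 8.33 and 7.57 in the day 5 mice. As with Wt1, 3 of the day 5 mice were above every uninjured mouse, and replicate 2 was the exception. The probe was above background in 2 of 4 uninjured and 3 of 4 day 5 mice. The change was 1.20 with an SE of 0.53 (limma, adjusted p = 0.171, exact permutation p = 0.0857), with 1.72 without day 5 replicate 2 (limma, adjusted p = 0.0415) and 0.84 without replicate 3 (limma, adjusted p = 0.304).

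Nes encodes nestin, an intermediate filament protein of podocytes, of progenitor cells and of some vascular cells. The mean of its 2 probes was 5.11, 5.74, 5.03 and 4.82 in the uninjured mice and 5.89, 5.22, 5.90 and 5.57 in the day 5 mice. These levels are at the edge of detection, with 1 uninjured and 2 day 5 mice above background. The change was 0.47 with an SE of 0.23 (limma, adjusted p = 0.211, exact permutation p = 0.114), and 0.39 without day 5 replicate 3 (limma, adjusted p = 0.346). Its 2 probes disagreed. The first was above background in 0 uninjured and 2 day 5 mice and differed by 0.92 with no overlap (limma, adjusted p = 0.0343 over probes). Its uninjured level is only a bound, against which no fold above 1 could be set. The second differed by 0.02 with overlapping groups (limma, adjusted p = 0.975).

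Across the panel, 1 of 7 measured genes was called higher and 0 lower by limma, with 3 at an unadjusted p under 0.05. So were 5055 of all 16593 genes, which is the background for each such count here. For 3 genes the groups of mice did not overlap, Ptpro and Cd2ap upward and Actn4 downward. At a threshold of 0.05 these same 3 genes passed, 2 upward and 1 downward, as did 14.3% of all genes, 8.55% upward and 5.8% downward. Among all genes 2.26% were called in either direction and 20% had groups without overlap. The median change was 0.47 on the log2 scale for the panel and -0.03 for all genes, and 5 of 7 panel means were higher on day 5 and 2 lower, beside 44.7% and 55.3% of all genes. A median of this size was not particular to the panel. It was 0.55 for endothelial, 0.53 for lymphocyte and 0.60 for neutrophil genes, with 18 of 21, 17 of 19 and 10 of 12 means higher. The medians of the further podocyte lists and of the tubule lists were negative. With a common 75th percentile the panel's median was 0.10, beside -0.52 for all genes. The panel did not move as a block within the day 5 group. Replicate 2 had the lowest level of 4 of the 7 genes, Wt1, Podxl, Cdkn1c and Nes, and the highest of Ptpro, while replicate 3 had the lowest of Ptpro and Cd2ap and the highest of Podxl, Cdkn1c and Nes.

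Beyond the panel, 5 further lists of podocyte genes held 116 measured genes of 132, of which 2 were called higher and 1 lower, or 2.59% beside 2.26% of all genes. Their median change was -0.16 on the log2 scale, and 48 means were higher and 68 lower. Of the 116, 50 were above background on all 8 arrays and 22 on none. These counts moved with day 5 replicate 3 and with the scaling, as given list by list, and with the test. A Bayesian test like that of the study's methods called 993 genes of the whole array higher and 635 lower. The unequal-variance test called 0 and 0. Among the slit diaphragm and junction genes 0 of 19 were called by limma, with 6 at an unadjusted p under 0.05 and a median of -0.20. Without day 5 replicate 3, 1 was called higher and 1 lower, and 1 higher with arrays scaled to a common median or 75th percentile. Kirrel, which binds nephrin across the slit, and Trpc6, a calcium channel of podocytes, were above background on no array. Iqgap1, a scaffold protein of the actin cytoskeleton found in most cells, had the largest change of that list among genes above background, 1.38 with an SE of 0.24 (limma, adjusted p = 0.0124). The level of Iqgap1 was 8.10 to 8.56 in the uninjured mice and 9.77, 10.05, 8.94 and 9.96 in the day 5 mice, again lowest in replicate 3.

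Of 31 genes of the foot process cytoskeleton and surface, 1 was called higher and 1 lower, with a median of -0.14. Dpysl2, which regulates microtubules, rose by 1.24 with an SE of 0.16 (limma, adjusted p = 0.00577), from 7.07 to 7.41 in the uninjured mice to 8.12 to 8.79 in the day 5 mice. Cttn, which encodes the actin-binding protein cortactin, fell by 1.25 with an SE of 0.17 (limma, adjusted p = 0.00622), from 6.71 to 7.45 down to 5.67 to 6.01. Of 17 genes of the glomerular basement membrane, 1 was called, Sparc, a matrix-associated glycoprotein that rose by 1.53 with an SE of 0.21 (limma, adjusted p = 0.00668). In the authors' processed table Sparc changed by 0.81, 0 genes of the list were called higher and 1 lower, and with a common 75th percentile or without day 5 replicate 3, 1 was called higher and 2 lower. Named after their values were seen, Col4a3 and Col4a4, collagen chains of the mature basement membrane, were lower on day 5 with no overlap, at -1.41 (SE 0.29, limma adjusted p = 0.0199) and -1.44 (SE 0.24, limma adjusted p = 0.0112). The median of that list was -0.12, and it was 0.22 with arrays scaled to a common median. The calls of Dpysl2 and Sparc were lost when any 1 mouse but day 5 replicate 3 was left out, with adjusted p by limma of 0.0106 to 0.0264, and that of Cttn when any mouse but uninjured replicate 4 or day 5 replicate 3 was, at 0.0161 to 0.0264. Leaving out day 5 replicate 3, 4 foot process genes were called higher and 3 lower. In the authors' processed table the change of Dpysl2 was 0.79 and that of Cttn -0.48.

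Among 23 transcription factors of podocytes 0 were called by limma, with 9 at an unadjusted p under 0.05 and a median change of -0.13. Without day 5 replicate 3, 1 was called higher and 1 lower, and with a common median or 75th percentile 1 was called higher. Lmx1b and Foxc2, which podocytes need to form, were above background on no array. Zeb2, a repressor made by podocytes and also by macrophages, differed by 2.01 with an SE of 0.44 (limma, adjusted p = 0.0226). It was 7.37, 6.66, 7.98 and 8.03 in the uninjured mice and 9.61, 9.95, 8.38 and 10.13 in the day 5 mice. Zhx3, a zinc finger and homeobox repressor, differed the other way, by -1.20 (SE 0.30, limma adjusted p = 0.0340). By the Bayesian test Zeb2 and Zhx3 passed the threshold (adjusted p = 0.000195 and 0.00324), and Klf6 of the same list did not (0.0216). Of 30 secreted factors and receptors 0 were called by limma, with 15 at an unadjusted p under 0.05 and a median of -0.30. With a common 75th percentile 3 were called lower, and without day 5 replicate 3, 1 was called higher and 6 lower. Vegfa, through which podocytes maintain the glomerular endothelium and which tubules make too, was 7.95 to 8.41 in the uninjured mice and 7.41, 6.05, 7.59 and 6.70 in the day 5 mice, a change of -1.32 (SE 0.32, limma adjusted p = 0.0317). Pth1r, the receptor of parathyroid hormone, which proximal tubules also make, changed by -1.49 (SE 0.29, limma adjusted p = 0.0162). By the Bayesian test Vegfa and Pth1r passed the threshold (adjusted p = 0.00210 and 0.000278), and Plaur of the same list did not (0.0112). Beside these values, the mean of 23 proximal tubule genes was 10.20 to 10.48 in the uninjured mice and 7.62 to 9.84 in the day 5 mice, with a median change of -1.23 and 2 genes called lower. With a common 75th percentile 10 were called lower, without day 5 replicate 3, 7 were, and 0 or 1 without any other single mouse. The part of tubule RNA in these changes was not tested.

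**Figure D4:**
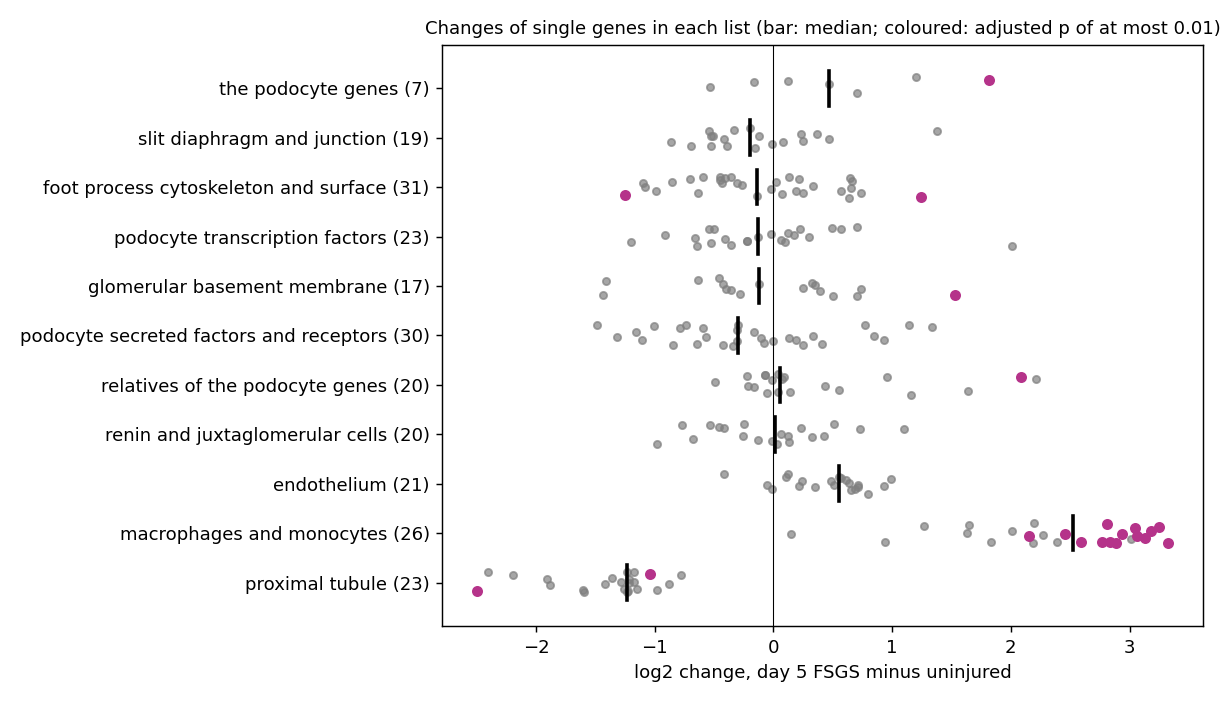
Log2 change of single genes (points) on day 5 against uninjured for the podocyte genes, for 6 related lists and for 4 lists of cell markers, with the number of measured genes in brackets. Bars are medians and coloured points passed the threshold of 0.01. The panel's median is 0.47, those of the 5 other podocyte lists run from -0.30 to -0.12, and that of the macrophage genes is 2.53.

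Relatives of the panel genes were measured beside them. Of 20 relatives, 10 were above background on no array, and 1 was called. This was Sh3kbp1, which encodes CIN85, the paralog of CD2AP. It was 5.03, 5.04, 5.73 and 5.94 in the uninjured mice and 7.48, 8.01, 6.68 and 7.91 in the day 5 mice, a rise of 2.09 with an SE of 0.33 (limma, adjusted p = 0.00949). The call was lost when any 1 mouse but day 5 replicate 3 was left out (limma, adjusted p = 0.0182 to 0.0350), and in the authors' processed table, where its change was 0.86 and 0 relatives were called. Of the relatives, 5 were called higher without day 5 replicate 3, and 2 with a common median or 75th percentile. Within the day 5 group it was lowest in replicate 3, as Ptpro and the macrophage list were. Ptprj, a receptor-type phosphatase like Ptpro, was higher on day 5 with no overlap and not called, at 0.95 (SE 0.23, limma adjusted p = 0.0299). Ptprb, the phosphatase of endothelium, differed by 0.55 (SE 0.37, limma adjusted p = 0.363), and it was highest, at 10.18, in day 5 replicate 3, like Podxl.

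The relatives of the other panel genes gave no further call by limma. The Bayesian test passed Cdkn1a, Vim and Egr2 (adjusted p = 0.00664, 0.000129 and 0.00153), and not Actn1, Cdkn1b, Cd34 or Egr1. Actn1, the paralog of Actn4, differed by 0.14 with an SE of 0.32 (limma, adjusted p = 0.822). Of the inhibitors related to Cdkn1c, Cdkn1a (p21) differed by 1.16 with no overlap (SE 0.24, limma adjusted p = 0.0202) and Cdkn1b (p27) by 0.44 (SE 0.15, limma adjusted p = 0.0872). Vim, the intermediate filament protein vimentin, differed by 2.21 with no overlap (SE 0.42, limma adjusted p = 0.0156). It was 5.93 to 6.73 in the uninjured mice and 8.77, 9.34, 7.39 and 9.24 in the day 5 mice, once more lowest in replicate 3. Cd34, which is related to Podxl, differed by -0.17 (SE 0.35, limma adjusted p = 0.797). Egr1, whose sites resemble those of Wt1, was 11.36 to 11.83 in the uninjured mice and 11.22 to 11.93 in the day 5 mice, a change of 0.04 (SE 0.18, limma adjusted p = 0.922). Its relative Egr2 was 7.05, 7.62, 8.32 and 8.28 in the uninjured mice and 9.65, 9.83, 8.25 and 10.11 in the day 5 mice, a difference of 1.64 with overlap only at day 5 replicate 3 (SE 0.44, limma adjusted p = 0.0434).

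Markers of the cells next to podocytes were measured as well. Of 20 renin and juxtaglomerular genes 0 were called by limma, with 6 at an unadjusted p under 0.05 and a median of 0.01. Their mean level was 6.14 to 6.20 in the uninjured mice and 5.82 in day 5 replicate 2, the mouse lowest in Wt1, whereas the remaining day 5 mice were at 6.13 to 6.31. Among the detected genes of this list Gja1 differed by 1.10 with no overlap (SE 0.37, limma adjusted p = 0.0832). Adcy6 differed by -0.77 with no overlap (SE 0.18, limma adjusted p = 0.0270), and Mcam by 0.73 with overlap (SE 0.34, limma adjusted p = 0.197). Of 17 genes of parietal epithelial cells, the cells that line Bowman's capsule, 0 were called by limma, with 4 at an unadjusted p under 0.05 and a median of -0.04. Vcam1, which parietal and endothelial cells can make, differed by 2.24 with no overlap (SE 0.52, limma adjusted p = 0.0274), whereas Pax2, a transcription factor of parietal and tubule cells, differed by -0.66 with overlap (SE 0.32, limma adjusted p = 0.205). By the Bayesian test the adjusted p was 0.000353 for Vcam1 and 0.139 for Pax2. Of 22 genes of smooth muscle, pericytes and mesangial cells 0 were called by limma, with 4 at an unadjusted p under 0.05. Thy1 differed by 2.41 with no overlap (SE 0.60, limma adjusted p = 0.0347) and Pdgfra by 1.41 with no overlap (SE 0.26, limma adjusted p = 0.0150). Des differed by 1.53 with overlap (SE 0.43, limma adjusted p = 0.0490). By the Bayesian test Thy1, Pdgfra and Des passed the threshold (adjusted p = 0.000418, 0.00113 and 0.00482), and Mcam and Rgs5 of the same list did not (0.105 and 0.354). The median change of this list was 0.10. In the day 5 mice Thy1 was 9.30, 9.98, 8.30 and 8.28, beside 7.11, 7.77, 6.56 and 6.60 for Cd3g of the lymphocyte list. Which cells gave the Thy1 signal was not tested.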

How the data were processed

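The authors read 8 BeadChip arrays, 1 per mouse, and deposited, for 25697 probes, intensities that are linear and not yet normalized, each with a detection p-value computed from the control beads that match no transcript. They also deposited a processed signal after variance stabilization and quantile normalization with lumi (its version is not given in the sources used), which was used as an alternative. RNA was amplified before labelling. Gene symbols came from the platform's table, in which 23978 probes have 1 symbol, 0 several and 1719 are unnamed here; 23962 matched RefSeq by gene number. From the intensities, log2 levels were computed with neqc of limma 3.58.1 in R 4.3.3 (normexp from the detection p-values, offset 16, quantile normalization), and probes of a gene were averaged. No filter on dim probes was used. lmFit and eBayes compared 4 with 4 mice, with group as the only term and Benjamini-Hochberg adjustment over 16593 genes. A gene was called where the adjusted p was 0.01 or less. Exact permutation tests were two-sided over 70 arrangements. The tests were checked on simulated data.

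The panel genes and lists were chosen with earlier results of these data known, so no count over them is independent evidence. Named genes were, in each list, up to 4 called genes or otherwise up to 3 with the largest change among those above background on all arrays of a group, every relative above background on all arrays of a group, and the 3 nearest profiles of each panel gene above background on all 8 arrays. Not all genes picked by this rule are printed. Genes named for being above background on no array were picked from the lists after their values were seen. Lists for neutrophils, lymphocytes, distal nephron and dissociation genes were run too and are given with the other observations. Alternatives were no background correction, offset 50, median and 75th percentile scaling, the authors' table, detection filters, the brightest probe, trended robust variances, array weights, the methods' Bayesian and unequal-variance tests, a replicate block, other thresholds and leaving out each mouse. Leaving out uninjured replicate 1 and day 5 replicate 3 together was added after the data were seen. Replicates are separate mice, and the number of arrays limits the precision. No columns (0) belonged to an unmapped sample, and no 2 arrays held the same values. Figures were drawn with matplotlib 3.10.9.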

Additional observations from a re-analysis of the deposited data

Results flagged for a closer look

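For 160 groups of 4 mice, formed by the genes named, the mouse farthest from the others was compared with the range of its group, and 7 groups had a mouse standing apart by Dixon's criterion at the 95% level, which chance passes in about 1 of 20 groups. All values are log2 levels in the day 5 group. Wt1 was 6.13 in replicate 2, against 9.14 to 9.51 in the other 3 mice. Slc15a2 was 6.43 in replicate 2, against 8.17 to 8.27. Rgs5 was 6.85 in replicate 2, against 8.78 to 9.14. Slc15a2 and Rgs5 were named for their likeness to Wt1, so their low values are not separate from that of Wt1. Ptprj was 7.94 in replicate 3, against 8.75 to 8.90. C1qc, the complement subunit of macrophages, was 9.01 in replicate 3, against 10.73 to 11.01. Plvap, which forms the diaphragms of fenestrated endothelium, was 9.27 in replicate 3, against 7.68 to 7.72. Hpd, a tyrosine-degrading enzyme of the proximal tubule, was 5.08 in replicate 3, against 4.82 to 4.85, all of them not above background.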

How the results depend on the processing

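The direction of Ptpro, Cdkn1c, Cd2ap, Actn4 and Nes held under all alternatives run for them, 23 to 26 each. The call of Ptpro was lost with an offset of 50 (1.31), in the authors' processed table (0.69), on the second probe alone (1.28), and, at an unmoved 1.82, with the methods' unequal-variance test (adjusted p = 0.0845), and it ran from 1.67 to 2.02 with 1 mouse left out. The Ptpro call held with the methods' Bayesian test (adjusted p = 0.000103), by which 1 panel gene was called higher and 0 lower. Cd2ap passed with median scaling (0.84) and at a threshold of 0.05 (0.70), and Actn4 with array weights (-0.54) and at that threshold (-0.53). With 1 mouse left out Cd2ap ran from 0.56 to 0.82, Actn4 from -0.58 to -0.46, Wt1 from -0.50 to 0.62 and Podxl from -0.17 to 0.31. Wt1 turned with no background correction (0.016), median scaling (0.14) and the authors' table (0.032), and Podxl with array weights (-0.095). The cause was not tested. The number of panel genes called higher was 0 with an offset of 50, in the authors' table and with the unequal-variance test, 2 with median scaling and at a threshold of 0.05, and 0 to 1 with a mouse left out, and 1 was called lower with array weights and at the threshold of 0.05. A filter on probes above background on at least 4 arrays left 6 of the 7 panel genes, without Nes.

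Genes called higher and lower over the whole array were 312 and 63. They were 157 and 47 with an offset of 50, 352 and 126 with no background correction, 309 and 116 in the authors' table, 719 and 38 with median scaling, 579 and 446 with 75th percentile scaling, 716 and 198 among probes above background on at least 4 arrays, 620 and 154 among probes at a detection p under 0.05 on at least 1, 554 and 106 with trended robust variances, 966 and 473 with array weights, 993 and 635 with the methods' Bayesian test, and 1419 and 962 at a threshold of 0.05. The share called higher was 83.2%, and 95.0% with median and 56.5% with 75th percentile scaling, which put the median of all genes at -0.18 and -0.52. The unequal-variance test called 0 and 0, with 2022 and 1800 at an unadjusted p under 0.05. With 1 mouse left out the counts ran from 0 to 1187 and from 0 to 711, highest without day 5 replicate 3 and 0 without day 5 replicate 1, where 2234 and 2213 had an unadjusted p under 0.05. Without uninjured replicate 1 and day 5 replicate 3 together they were 1087 and 629. With the replicate number as a block limma called 0 higher and 0 lower genes, with 2442 and 2429 at an unadjusted p under 0.05, and the adjusted p of Ptpro was 0.0309 at a change of 1.82. Mice of the same number come from different animals, their deviations correlated between -0.09 and 0.11, and 2 of 4 uninjured and 1 of 4 day 5 mice correlated best with their own number, so they share a number only. Detection limits the dim genes Cd2ap, Nes and Ptpro, which were above background in 0, 1 and 1 of the 4 uninjured mice.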

Other observations

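The remaining marker lists were measured on the same arrays. Of 20 genes of the loop, distal tubule and collecting duct, 2 were called lower, with a median change of -0.78 on the log2 scale. Hsd11b2, which inactivates glucocorticoids in the collecting duct, changed by -1.85 with an SE of 0.19 (limma, adjusted p = 0.00365), and Slc4a1, the anion exchanger of intercalated cells, by -2.39 with an SE of 0.36 (limma, adjusted p = 0.00790). Both calls were lost when any 1 mouse other than day 5 replicate 3 was left out, with adjusted p by limma of 0.0111 to 0.0161 and 0.0214 to 0.0301, and with a common 75th percentile 6 genes of the list were called lower. Of 19 lymphocyte genes 1 was called, Cd3g of the T cell receptor complex, which was above background in 0 uninjured and 4 day 5 mice and at least 1.53-fold higher on day 5 (limma, adjusted p = 0.00413), counted from the lowest level above background on each uninjured array. That call was lost when any mouse other than day 5 replicates 2 and 3 was left out (limma, adjusted p = 0.0128 to 0.0218). Of 12 neutrophil genes 0 were called by limma, with 2 at an unadjusted p under 0.05, beside 5055 of all 16593 genes. By the Bayesian test Csf3r of that list passed the threshold (adjusted p = 0.00947), and S100a9 and Mmp9 did not (0.299 and 0.0733). Of 16 genes induced by tissue dissociation 0 were called by limma, with 10 at an unadjusted p under 0.05 and a median of 0.69, and Atf3, a stress-induced factor, was 6.94 to 7.59 in the uninjured mice and 8.83, 8.61, 7.72 and 8.91 in the day 5 mice. By the Bayesian test Atf3, Socs3 and Egr2 of that list passed the threshold (adjusted p = 0.00191, 0.00310 and 0.00153), and Egr1 did not (0.919).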
